A study of Gallus gallus with 8 samples.

Results

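Retinas of 2 untreated chicks whose arrays held no W-linked signal (control 2 and control 4) were compared with retinas of 2 untreated chicks whose arrays held it (control 1 and control 3). These are the 4 control arrays of a series of 8. The members of each pair were chosen by measured values: 2 W-linked probe sets had to lie below a log2 intensity of 5 on one side and above 7 on the other. All chicks were White Leghorns aged 9 days, labelled male, with 1 chick per array and the retinas of both eyes pooled. The 4 further chicks wore a +6.9 D lens over each eye for 24 h, the positive lens treatment that the series was made to study, and control chicks wore none. All 4 arrays of lens-treated chicks held W signal. They serve here as a further look at levels that the pairing of control arrays did not use. In a fit of all 8 arrays they also add to the estimate of spread.

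In birds the female carries a Z and a W chromosome and the male carries a pair of Z chromosomes. A W-linked transcript therefore has no template in a male. Most Z-linked genes have no W copy, and birds lack a chromosome-wide mechanism that equalizes the Z dose between the sexes, so that many Z-linked genes are transcribed at a higher level in males. A few genes kept a copy on both chromosomes. Such pairs are called gametologs, and several W copies serve as markers to sex chicks.

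The label male went against the data in 6 of 8 arrays, which held W-linked mRNA, so the groups are named below by W signal and not by sex. The 2 control arrays without W signal were washed on modules 2 and 4 of a fluidics station and the 2 with it on modules 1 and 3, so that module and W signal cannot be told apart among control arrays. Lens-treated chicks on modules 2 and 4 held W signal like those on modules 1 and 3. All 4 were washed on station 1 and scanned as numbers 5 to 8, after all arrays of lens-treated chicks, which were washed on station 2. The deposited values are intensities made with GC-RMA and not logged, so that log2 was taken first. Between 53.4% and 53.8% of probe sets, depending on the array, were dimmer than 16 (log2 of 4), a level at which GC-RMA leaves little signal. The 3′ probe set of beta-actin exceeded the 5′ probe set by 1.74 and 1.69 (log2) in arrays without W signal and by 1.67 and 1.77 in control arrays with it. Pairs of control arrays correlated between 0.993 and 0.995 over all probe sets. No label says how the chicks were related. The p-values below from control arrays alone measure only the spread within 2 pairs of arrays. Those from a fit of all 8 arrays also rest on the spread among the 4 lens-treated chicks.

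The W-linked mRNA that set the pairs differed by an all-or-none margin. The probe set of UBE2R2L, a W-linked copy of a ubiquitin-conjugating enzyme gene, had log2 intensities of 2.64 and 2.34 in control 2 and control 4, against 8.52 and 8.57 in control 1 and control 3. It lay between 8.49 and 8.73 in the 4 arrays of lens-treated chicks. The second probe set of the rule, of LOC107049459, had 3.01 and 3.07 in arrays without W signal, against 8.75 and 8.65 in control arrays with it and 8.30 to 8.65 in lens-treated chicks. No array had a value between 5 and 7 at either probe set. The nearest values on each side were 3.07 and 8.30, both at LOC107049459. These values chose the pairs and carry no test.

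RefSeq placed 39 probe sets of 17 genes on W, and 17 of them, of 10 genes, were lower in the arrays without W signal by more than 1 (log2). The largest difference was at HINTW, a W-linked gene of the histidine triad family that is present in many copies. Its log2 intensity was 5.39 and 4.35 in control 2 and control 4, against 14.14 and 13.81 in control 1 and control 3, and 14.04, 14.14, 13.68 and 13.97 in lens-treated chicks. The W copy of the chromatin remodeler CHD1 (LOC374195) had 2.55 and 2.62 in arrays without W signal, against 7.11 and 7.29 in control arrays with it. The W copy of the spindlin gene SPIN1 (SPIN1L) had 5.27 and 3.45, against 7.91 and 8.15. At all 17 probe sets the arrays without W signal lay below all 6 arrays with it, with a smallest gap of 1.97 (log2). The 17 include the probe sets of the rule and were chosen by their difference between these pairs. Their separation among control arrays therefore carries no test. At 12 of the 17 both arrays without W signal lay below an intensity of 16, so that their differences depend on how background was treated. With values raised to a floor of 16, UBE2R2L differed by −4.55 (log2) in place of −6.05, and the second probe set of LOC374195 by −1.76 in place of −2.46. LOC430910, whose probe set also met the limits of 5 and 7, had 3.06 and 3.11 without W signal, against 9.41 in both control arrays with it.

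The arrays without W signal were not all at one floor. SPIN1L, HINTW, HNRNPKL, LOC427010 and LOC431003 had higher residual values in control 2 than in control 4 at 1 or more probe sets, as at LOC431003 (3.68 and 2.20). A further probe set of HNRNPKL went the other way, with 3.19 in control 2 and 4.44 in control 4. HNRNPKL, a W copy of the RNA-binding protein gene HNRNPK, also differed among arrays with W signal at part of its probe sets. At 1 it had 9.60 in control 1 and 7.39 in control 3, and 9.54, 9.60, 7.72 and 9.37 in lens-treated chicks. Another had 9.59 in control 1 and 7.57 in control 3, whereas the others had 8.01 and 8.10, and 6.06 and 6.37. Control 3 and the low lens-treated chick were washed on module 3 of their stations. A part of the module in this was not tested. Over the 17 probe sets, chosen by their difference between the control pairs, the mean log2 intensity was 3.57 in control 2 and 3.04 in control 4. It was 7.84 in control 1, 7.55 in control 3 and 7.58 to 7.83 in lens-treated chicks.

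**Figure D1:**
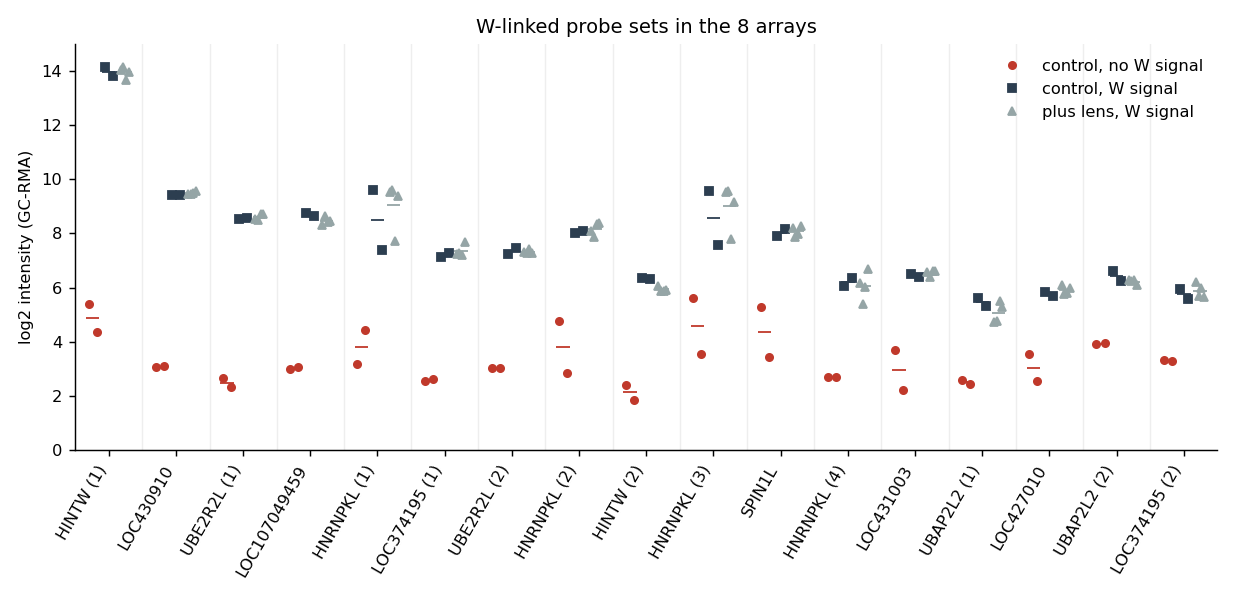
Log2 intensity (y axis) of the 17 W-linked probe sets that differed by more than 1 between the pairs of control arrays (x axis, by gene, with a number where a gene has several probe sets). Circles are the 2 control arrays without W signal, squares the 2 control arrays with it, triangles the 4 arrays of lens-treated chicks, and lines their means; at each probe set the circles lie below all 6 other symbols.

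Of the other W-assigned probe sets, 21 differed by less than 1 and 15 of these lay below an intensity of 16. MBD2, a methyl-CpG binding protein gene that the annotation places on W, had 8.72 and 8.71 without W signal, against 8.83 and 8.88 with it. NEDD4L, a ubiquitin ligase gene assigned to W, went the other way at all 5 of its probe sets, by 0.40 to 1.23 (log2). At the probe set with the largest difference it had 6.37 and 6.27 in arrays without W signal, against 4.74 and 5.44 in control arrays with it and 5.02 to 5.40 in lens-treated chicks. The assignment to W of these 2 genes was taken from the annotation and was not tested. Of 11628 probe sets without a placed gene, 9 without a gene symbol had the pattern of the W-linked ones, 8 of them by more than 3 (log2). They were chosen by log2 values below 5 in both arrays without W signal and a gap above 1 to all 6 others. Their pattern therefore carries no test. Some have names that begin like that of the LOC107049459 probe set that set the pairs. The 1 with the largest difference had 3.07 and 2.80 in arrays without W signal, against 9.19 and 9.08 in control arrays with it.

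Z-linked mRNA was higher in the arrays without W signal along the whole chromosome. Over the 623 Z-linked probe sets with a mean intensity of at least 16 in control arrays, the median difference was 0.52 (log2), or 1.43-fold, against −0.02 over 13771 autosomal probe sets. Of the Z-linked probe sets 88.6% were higher, against 44.7% of the autosomal ones. At least 1.5-fold higher were 42.2% of the Z-linked probe sets, against 1.50% of the autosomal ones, and at least 1.5-fold lower were 1.93% against 2.14%. A difference of at least 1 (log2), the value for a full doubling of dose, was reached by 10.8% of the Z-linked probe sets. With the dim probe sets included, the median was 0.16 over all 1181 Z-linked probe sets, because the 558 below an intensity of 16 had a median of 0.01.

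The difference was of like size in both arrays without W signal. The median deviation of Z-linked from autosomal probe sets was 0.39 (log2) in both control 2 and control 4, against −0.10 in control 1, −0.15 in control 3 and −0.14 to −0.09 in lens-treated chicks. The 4 cross comparisons of a control array without W signal and one with it gave Z-linked medians of 0.50 to 0.54. The comparison of the arrays with W signal, control 1 minus control 3, gave 0.02, and that of the arrays without it gave −7.8e-05. The Z-linked median of arrays without W signal minus arrays of lens-treated chicks was 0.47, and that of lens-treated chicks minus control arrays with W signal was 0.02. Among 28 autosomes with at least 50 probe sets, the medians ran between −0.06 and 0.01. A permutation of 2 arrays against 2 cannot give an exact two-sided p below 0.333, and the medians therefore carry no test.

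**Figure D2:**
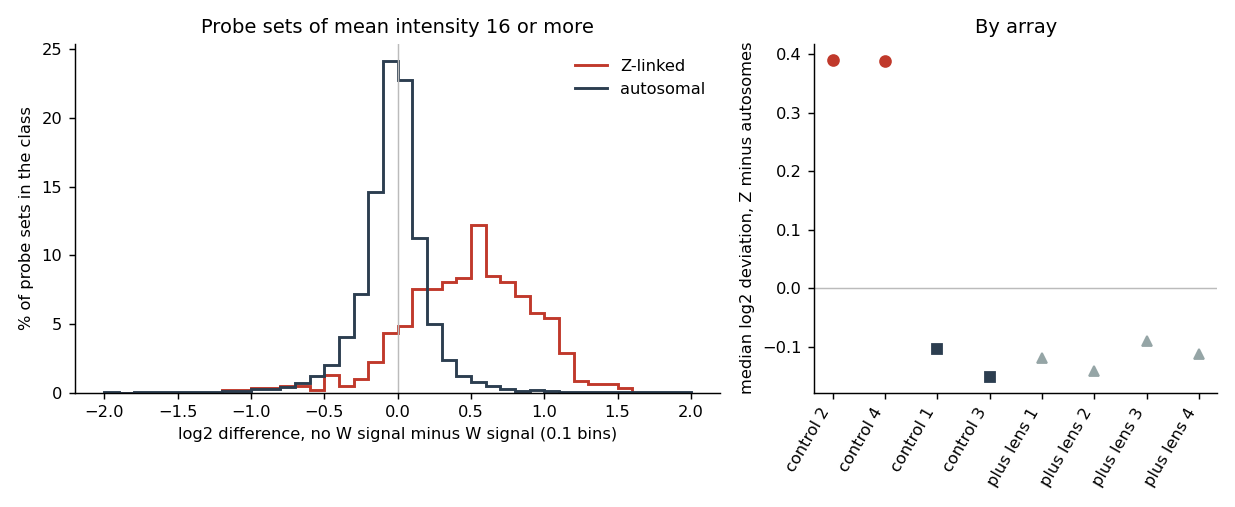
Left, share of Z-linked and autosomal probe sets (% of the class, y axis) by log2 difference between control arrays without and with W signal (x axis, 0.1 bins, probe sets of mean intensity 16 or more). Right, median log2 deviation of Z-linked minus autosomal probe sets in each array, at 0.39 in control 2 and control 4 and between −0.15 and −0.09 in the 6 arrays with W signal.

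The Z-linked difference was present in each class of brightness above background. In 4 classes from dim to bright, with bounds at log2 values of 4, 6, 8 and 10, the median differences were 0.37 for 150 Z-linked probe sets, 0.58 for 194, 0.56 for 190 and 0.50 for 89. Autosomal probe sets had medians between −0.03 and −0.01 in the same classes. Taking 1 probe set per gene, 407 Z-linked genes had a median of 0.53, and 361 of them were higher. Along the chromosome, the medians of 8 blocks of 50 or 51 genes in RefSeq order ran between 0.38 and 0.59, and between 82.4% and 94.1% of the genes in a block were higher. The order of genes comes from the GRCg7b assembly. Where a Z-linked gene had 2 or more probe sets above 16, all of them were higher in 124 of 149 genes, all lower in 6 and of mixed sign in 19.

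The fit of limma over all 38439 probe sets, with 2 arrays a side, called 4 probe sets (0.0104%) at an adjusted p under 0.06 and 1.5-fold. They were LOC430910 and LOC107049459, both W-linked, and 2 without a symbol that had the W-linked pattern. None was Z-linked or autosomal, and nothing is read from 4 calls that rest on the signal that set the pairs. The smallest adjusted p was 0.0897 among Z-linked probe sets and 0.0666 among autosomal ones, from limma with Benjamini-Hochberg adjustment, and 2031 probe sets had an unadjusted p under 0.05 at any fold change. At an unadjusted p under 0.05 and 1.5-fold, 525 probe sets passed (1.37%), of which 354 were higher (0.921% of all tested) and 171 lower (0.445%) in arrays without W signal. Of 1181 Z-linked probe sets, 230 were among them, which is 19.5%, with 222 higher and 8 lower. Of 25591 autosomal probe sets, 165 were among them, which is 0.645%, with 63 higher and 102 lower.

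The lens-treated chicks, which the pairing did not use, had the levels of control arrays with W signal at most of these Z-linked probe sets. All 4 lens-treated chicks lay nearer to the control arrays with W signal at 189 of the 222 that were higher, and at the other 33 some did. At 219 of the 222 both arrays without W signal lay above all 6 other arrays. Of the 63 autosomal probe sets that were higher, the arrays of lens-treated chicks lay nearer to the control arrays with W signal in all 4 chicks at 13, and 23 stood above all 6 arrays. Of the 102 autosomal probe sets that were lower, all 4 lens-treated chicks lay nearer to the control arrays with W signal at 21, and 50 stood below all 6 arrays. Over all probe sets 1.01% were at least 1.5-fold higher and above all 6 arrays, and 0.481% were lower and below all 6. A fit of all 8 arrays in 3 groups had the same contrast, so that the comparison remained 2 chicks against 2. The arrays of lens-treated chicks added only to its estimate of spread. This fit called 112 probe sets (0.291%) at an adjusted p under 0.06 and 1.5-fold. Of these, 71 were Z-linked (68 higher and 3 lower), 13 W-linked, 8 autosomal and 20 without a placed gene. With the fluidics module, which equals the replicate number, as a block in that fit, 0 passed and 778 reached an unadjusted p under 0.05 and 1.5-fold, 201 of them Z-linked. That block leaves less to estimate the spread from. It also subtracts the difference of lens-treated chicks on modules 2 and 4 against 1 and 3. The fall in calls is therefore not read as an effect of module, which was not tested. Every pass in the fit of 8 arrays in the paragraphs that follow is without that block. The Z-linked median above an intensity of 16 was 0.52 (log2) with that block too.

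The Z-linked genes with the smallest p lay apart from all 6 arrays with W signal, as did 219 of the 222 higher probe sets above. With 2 arrays a side, choosing genes by p favours close replicates. The closeness of replicates and the small SE of these genes are therefore not a result. RPP25L, a relative of a subunit of the RNA-processing enzyme RNase P, had log2 intensities of 8.60 and 8.59 in control 2 and control 4, against 7.66 in both control 1 and control 3. Lens-treated chicks had 7.52, 7.68, 7.66 and 7.64. The difference was 0.93 ± 0.01 (log2, SE, adjusted p = 0.0897 from limma), and it passed in the fit of 8 arrays (adjusted p = 0.00577). TXNL1, a thioredoxin-like protein that associates with the proteasome, had 10.88 and 10.91 without W signal, against 10.07 and 10.09 in control arrays with it and 9.97 to 10.10 in lens-treated chicks. It differed by 0.82 ± 0.02 and also passed in the fit of 8 arrays (adjusted p = 0.00367).

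MRPL50, a protein of the large subunit of the mitochondrial ribosome, had 9.34 and 9.36 without W signal, against 8.24 and 8.20 in control arrays with it and 8.17 to 8.43 in lens-treated chicks. This is a difference of 1.13 ± 0.02, whereas a dimmer probe set of the gene differed by 0.44 ± 0.27. NSA2, a factor of ribosome assembly, had 10.94 and 10.96, against 10.23 and 10.20. TBCA, a cofactor of tubulin folding, had 10.34 and 10.33, against 9.44 and 9.43 in control arrays with W signal and 9.34 to 9.68 in lens-treated chicks. These 3 genes passed in the fit of 8 arrays (adjusted p = 0.0151, 0.0450 and 0.0545), as they did not with the control arrays alone.

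A further 5 genes made up the 10 of smallest p. PTCH1, the receptor of hedgehog ligands, had 9.08 and 9.09 without W signal, against 8.22 and 8.25 in control arrays with it, and 8.45 to 8.74 in lens-treated chicks (0.85 ± 0.02). ST8SIA3, a sialyltransferase of the nervous system, had 9.53 and 9.54, against 8.66 and 8.67. FAM151BL (1.39 ± 0.02), C9orf72 (0.81 ± 0.01) and TTC33 (0.69 ± 0.01) were the others. Of these 3, C9orf72, a gene whose repeat expansion causes motor neuron disease in humans, had 4.75 and 4.77, against 3.95 and 3.94, with 3.35 to 4.36 in lens-treated chicks. Its brightest probe set had 9.94 and 9.43, against 8.91 and 8.86 (0.80 ± 0.22). All 10 lay above all 6 arrays with W signal, and none passed with the control arrays alone. Their place above control 1 and control 3 was largely set by the choice by p and fold. Of all Z-linked probe sets that were higher at an unadjusted p under 0.05 and 1.5-fold, 98.6% lay above all 6. Nothing particular to the 10 is read from this.

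Z-linked genes with some of the largest differences were WDR41, XPA, AK6 and PIK3C3. WDR41, a protein that forms a complex with C9orf72 in mammals, had 6.25 and 6.52 without W signal, against 4.63 and 4.95 in control arrays with it and 4.68 to 5.95 in lens-treated chicks (1.59 ± 0.18). XPA, a DNA damage recognition factor of nucleotide excision repair, had 9.52 and 9.94, against 8.33 and 8.09 (1.51 ± 0.21). AK6, a nuclear adenylate kinase, had 7.85 and 7.92, against 6.36 and 6.41 (1.50 ± 0.04), and differed by 1.47 ± 0.10 at a second probe set but by 0.20 at its remaining bright one. PIK3C3, the lipid kinase of autophagy and endosomes, had 7.11 and 7.35, against 5.84 and 5.76, and passed in the fit of 8 arrays (adjusted p = 0.00949). The genes of this paragraph were chosen after their values were seen.

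The Z copies of W-linked genes were measured by probe sets of their own. SPIN1 had 10.57 and 10.48 in arrays without W signal, against 9.46 and 9.78 in control arrays with it (0.90 ± 0.14). HNRNPK had 11.28 and 11.32, against 10.66 and 10.52 (0.71 ± 0.06). UBE2R2 had 9.51 and 9.53, against 8.91 and 8.92 (0.61 ± 0.02), and UBAP2, a ubiquitin-associated protein, had 8.33 and 8.15, against 7.45 and 7.41 (0.81 ± 0.08). CHD1 had 7.52 and 7.56, against 7.04 and 7.05 (0.50 ± 0.02), and a second bright probe set of this gene differed by 1.08 ± 0.23. HINT2, which RefSeq also lists under the older name HINT1Z, had 12.49 and 12.58, against 11.98 and 11.87 (0.61 ± 0.06). At these 6 genes the Z copy was higher in the arrays without W signal, and each lay above all 6 arrays with it. Most Z-linked genes were also higher: 88.7% of those above an intensity of 16, at 1 probe set each. Of the same genes, 42.5% were at least 1.5-fold higher and above all 6 arrays. The W copies were lower by the choice of pairs, so no relation particular to these Z and W copies is read from this. Whether probes of one copy also bound mRNA of the other was not tested, since probe sequences were not analysed here.

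**Figure D3:**
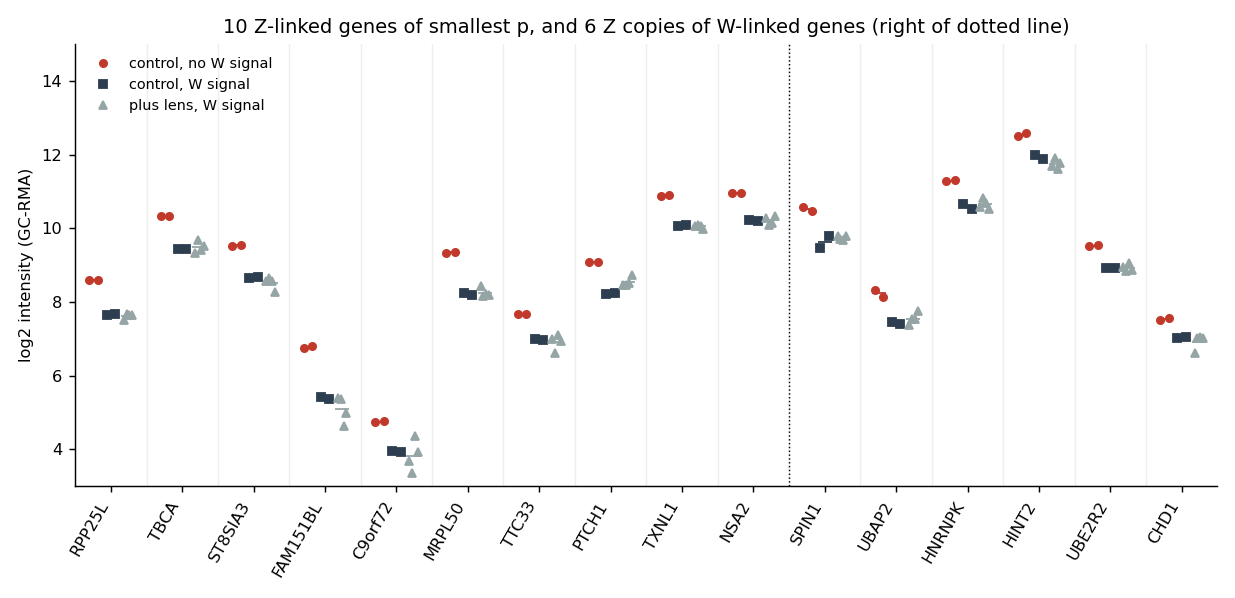
Log2 intensity (y axis) of the 10 Z-linked genes with the smallest p and, right of the dotted line, of the Z copies of 6 W-linked genes. Circles are the 2 control arrays without W signal, squares the 2 control arrays with it, triangles the 4 arrays of lens-treated chicks, and lines their means; the circles lie above all other symbols at each gene, by means that differ by 0.50 to 1.39 between control arrays.

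A longer list of Z gametologs held 20 genes that RefSeq places on Z, and all 20 were higher in the arrays without W signal, with a median of 0.66 (log2) beside 0.29 over Z-linked genes at 1 probe set each and 0.53 over those above an intensity of 16. None passed with the control arrays alone, 13 reached an unadjusted p under 0.05 and 1.5-fold, and 4 passed in the fit of 8 arrays (TXNL1, SMAD2, SPIN1 and BTF3). Over all Z-linked probe sets above an intensity of 16, 35.8% reached the first of these limits and 11.1% passed in the fit of 8 arrays. At 1 probe set per gene, as in the list, the shares were 38.1% and 13.5% of 407 Z-linked genes, of which 88.7% were higher. SMAD2, a transducer of TGF-beta and activin signals, had 10.68 and 10.56, against 9.89 and 10.01, with 9.78 to 9.86 in lens-treated chicks. VCP, the ATPase that extracts ubiquitinated proteins, had 11.78 and 11.69, against 11.07 and 11.16. ATP5F1AZ, the Z copy of the alpha subunit of mitochondrial ATP synthase, had 12.39 and 12.42, against 11.45 and 11.65. The smallest differences of the list were at MIER3 (0.09, below an intensity of 16) and SUB1 (0.31).

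Z-linked genes of signaling and synapses differed unevenly. Of 41 such genes on Z, 32 were higher and 9 lower, with a median of 0.20 beside 0.29 over Z-linked genes at 1 probe set each and 0.53 over those above an intensity of 16, and 9 of the 41 lay below that intensity. None passed with the control arrays alone, and 5 reached an unadjusted p under 0.05 and 1.5-fold (4 higher, 1 lower). Of all Z-linked probe sets 19.5% did, and of those above 16, 35.8%. Of Z-linked genes above 16, at 1 probe set each, 38.1% did. PTCH1 and SLC1A1 passed in the fit of 8 arrays. ALDH1A1, an enzyme that makes retinoic acid, had 7.59 and 7.28 without W signal, against 6.45 and 6.22 in control arrays with it and 5.38 to 6.64 in lens-treated chicks. ISL1, a homeobox factor of bipolar, amacrine and ganglion cells, had 10.99 and 11.05, against 10.19 and 10.59. Others lay near zero: the scaffold gene HOMER1 differed by −0.01 ± 0.04 and the kinase gene JAK2 by 0.01 ± 0.08, while VLDLR, a receptor of the reelin pathway, had 9.63 and 9.75, against 9.86 and 9.52. These lists and the genes in them were chosen with results of these data known, and the counts are a description.

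Among Z-linked genes that were lower in the arrays without W signal, SLC1A1 and SELENOP1 were lower by 1.5-fold at all of their several bright probe sets. PPIP5K2 was of mixed sign, with −1.09 to 0.06 over its 3 bright probe sets and a median of −0.66. SLC1A1, a neuronal glutamate transporter, had 8.01 and 7.92 in control 2 and control 4, against 8.88 and 8.87 in control 1 and control 3. Lens-treated chicks had 8.88, 8.92, 8.91 and 8.78. The difference was −0.91 ± 0.04 (log2, SE, adjusted p = 0.202 from limma), and it passed in the fit of 8 arrays (adjusted p = 0.00577). At its 2 other probe sets it was −0.73 and −0.96, and at all 3 the arrays without W signal lay below all 6 others.

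SELENOP1, a secreted selenoprotein that carries selenium, was bright and lower at 4 probe sets by 0.74 to 1.16 (log2). At the brightest it had 11.30 and 11.42, against 12.20 and 12.18 in control arrays with W signal and 11.95 to 12.18 in lens-treated chicks (−0.83 ± 0.06). That probe set and 1 further of this gene passed in the fit of 8 arrays (adjusted p = 0.0398 and 0.0522). At all 4 the arrays without W signal lay below all 6 others. With AQP7, a channel for water and glycerol that was dim (2.51 and 2.50, against 3.19 and 3.35), these make up the 8 Z-linked probe sets that were lower at an unadjusted p under 0.05 and 1.5-fold. UHRF2, a nuclear ubiquitin ligase, was lower at both bright probe sets, by 0.43 and 0.49, which is less than 1.5-fold. The annotation gives SLC1A1 as the 168th and UHRF2 as the 175th of 407 Z-linked genes in order, with genes between them that differed by −0.24 to 0.25.

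**Figure D4:**
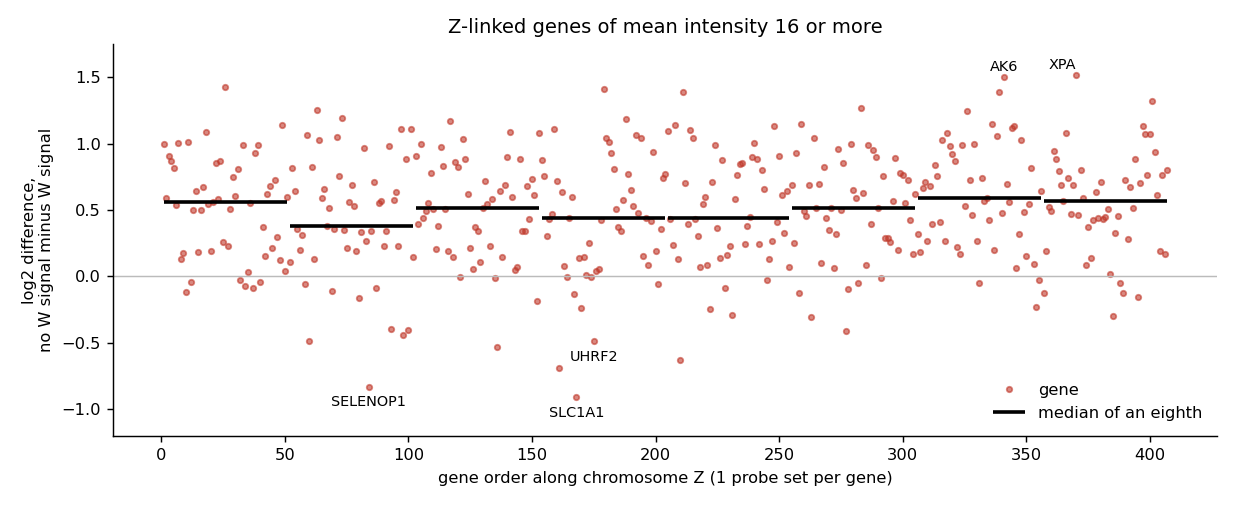
Log2 difference between control arrays without and with W signal (y axis) for 407 Z-linked genes of mean intensity 16 or more, 1 probe set per gene, in their order along the chromosome (x axis). Black lines are the medians of 8 blocks of 50 or 51 genes, between 0.38 and 0.59; SLC1A1, SELENOP1 and UHRF2 lie below 0, and AK6 and XPA near 1.5.

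At autosomal probe sets with the smallest p, lens-treated chicks often had other levels than control arrays with W signal. A probe set of ID2, an inhibitor of helix-loop-helix transcription factors, had the smallest adjusted p of the autosomal ones (0.0666 from limma). It had 5.39 and 5.41 in arrays without W signal, against 4.08 and 4.07 in control arrays with it. Lens-treated chicks had 6.74, 5.82, 6.46 and 5.32, so that the low level at this probe set was found only in control 1 and control 3. The brightest probe set of ID2 differed by 0.26 ± 0.14, with 10.42 and 10.71, against 10.37 and 10.24. Lens-treated chicks were also near the arrays without W signal at 3 further of the 10 higher probe sets of smallest p, which measure the lysosomal transporter gene SLC17A5 (4.94 and 4.90, against 4.29 and 4.24, with 4.71 to 5.01 in lens-treated chicks), TFDP2, a partner of E2F factors, and ORMDL3, a regulator of sphingolipid synthesis. A brighter probe set of SLC17A5 differed by 0.06, and brighter ones of ORMDL3 by 0.21 and 0.28. At GNPAT and MPST they spread over the range between the pairs, as at GNPAT, an enzyme of plasmalogen synthesis (7.34 and 7.21, against 6.13 and 6.23, with 5.93 to 7.38). At DUT (8.36 and 8.28, against 7.54 and 7.64) lens-treated chicks had 8.25, 7.87, 8.04 and 8.33, all above the control arrays with W signal. A brighter probe set of DUT differed by 0.05. The probe sets of COMMD9 (3.18 and 3.19, against 2.41 and 2.40), SKIV2L and GTSF2 lay above all 6 arrays, all 3 at log2 values below 5. The 3 brighter probe sets of COMMD9 differed by −0.26, −0.07 and −0.01, and brighter ones of SKIV2L by 0.60 and −0.06. At SKIV2L and GTSF2 the highest lens-treated chick, with 4.24 and 4.55, lay close below.

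Of the 10 lower autosomal probe sets with the smallest p, 6 lay below all 6 arrays with W signal (those of PPP2R2D, SST1, ATP6V0D2, TMEM14A, POFUT1 and GNL3). Brighter probe sets of 4 of these genes differed less, by −0.03 to 0.05 (log2) at PPP2R2D, −0.25 at TMEM14A, −0.08 at POFUT1 and −0.26 and −0.13 at GNL3, whereas the brighter one of ATP6V0D2, a proton pump subunit, differed by −0.74. The probe set of PPP2R2D, a regulatory subunit of a protein phosphatase, lay below narrowly, with 4.94 and 4.93, against 5.87 and 5.90 in control arrays with W signal and 4.99 to 6.26 in lens-treated chicks. The probe set of SST1, the precursor of the neuropeptide somatostatin, had 2.67 and 2.65, against 3.54 and 3.53 in control arrays with W signal and 3.54 to 3.62 in lens-treated chicks. It lay under an intensity of 16 in every array. With the control arrays alone it differed by −0.88 ± 0.02 (log2, SE, adjusted p = 0.0897 from limma). It passed in the fit of 8 arrays (adjusted p = 0.000709). Lens-treated chicks spread widely at the kinase gene MAP3K2 (2.18 and 2.19, against 4.71 and 4.42, with 2.06 to 6.23) and at EOGT (4.70 and 4.78, against 6.16 and 6.34, with 2.11 to 6.09). A brighter probe set differed by −0.41 ± 0.42 at MAP3K2 and by −0.36 ± 0.15 at EOGT. MTBP and TNFAIP2 also had lens-treated chicks below the arrays without W signal.

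The fit of 8 arrays called 8 autosomal probe sets, which is 0.0313% of those tested, against 6.01% of the Z-linked ones. ARRDC1, an arrestin-domain protein of vesicle budding, was lower, with 8.69 and 8.46, against 9.69 and 9.93 in control arrays with W signal. Lens-treated chicks had 9.70 to 9.82. With the control arrays alone the difference was −1.24 ± 0.14 (log2, SE, adjusted p = 0.405 from limma), and the fit of 8 arrays gave an adjusted p of 0.0197. ACTR10, a subunit of the dynactin complex, was higher, with 10.68 and 10.48, against 9.85 and 9.88, and 9.80 to 9.99 in lens-treated chicks. Its difference was 0.72 ± 0.09 (adjusted p = 0.425 from limma) with the control arrays alone, and the adjusted p was 0.0506 in the fit of 8 arrays. CA13, a carbonic anhydrase, had 4.89 and 4.67, against 3.80 and 3.70, with lens-treated chicks between at 4.24 to 4.42. SST1, COMMD9, ORMDL3, PLEKHH1 and MYOM2 were the others. Of the 8, the probe sets of SST1, COMMD9, PLEKHH1 and MYOM2 lay below log2 4 in every array.

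GNRH1, the precursor of gonadotropin-releasing hormone, and VPS26B, a subunit of the retromer, were chosen after their values were seen. GNRH1 had 6.43 and 4.37 in control 2 and control 4, against 9.55 and 8.88 in control 1 and control 3, and 8.46, 7.66, 7.54 and 9.09 in lens-treated chicks. The difference of −3.82 ± 0.93 (log2, SE) did not pass (adjusted p = 0.809 from limma), nor did it in the fit of 8 arrays (adjusted p = 0.320). The arrays without W signal lay below all 6 others but differed widely from each other. VPS26B was higher by 3.01 ± 0.40, with 7.24 and 7.72, against 4.86 and 4.07. Lens-treated chicks had 7.17, 7.47, 5.45 and 7.50, so that 3 of them were at the level of the arrays without W signal.

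Autosomal genes of sex determination and of steroid hormones lay mostly near background. Of 20 members 13 were higher and 7 lower, with a median of 0.01 (log2), the same as over all autosomal probe sets, and 15 lay below an intensity of 16. Of all autosomal probe sets 59.6% were higher, and of those below 16, 77.0%. By limma 0 passed, 0 reached an unadjusted p under 0.05 with 1.5-fold, and 0 passed in the fit of 8 arrays, while 2 had an unadjusted p under 0.05 at any fold. SOX9, a factor of testis formation and of Mueller glia, had 6.29 and 7.01 without W signal, against 7.07 and 7.88, a difference that did not pass. The aromatase gene CYP19A1 had 2.40 in both arrays without W signal, against 2.40 and 2.39, and the estrogen receptor genes ESR1 and ESR2 also lay near background. DMRT1, the Z-linked gene whose dose directs testis formation in birds, had 2.91 and 2.90, against 2.90 and 2.88, below an intensity of 16 in the retina. HSD17B4, an enzyme of peroxisomal fat oxidation and steroid metabolism on Z, was higher, with 9.85 and 9.52, against 9.00 and 9.11 (0.63 ± 0.15).

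Lists of markers of retinal neurons and of Mueller glia had medians near 0. These lists held from 3 measured genes for horizontal cells to 12 for cones. Medians of the lists for cones, bipolar, amacrine, horizontal and ganglion cells and Mueller glia lay between −0.10 and 0.05, and that of rods was 0.16 over 5 genes, of which PDE6B is on Z. In tissue pooled from many cell types, fewer cells of a type and less RNA per cell cannot be told apart. Single members differed more than the medians. The amacrine marker CHAT had 3.38 and 6.58, against 5.68 and 5.92, and SOX9 of the Mueller glia list differed by −0.82. The horizontal cell marker CALB1, a calcium-binding protein, had 9.42 and 9.68, against 8.73 and 8.89, with 9.03 to 9.81 in lens-treated chicks. TAC1, the precursor of substance P, had 9.53 and 9.64, against 9.87 and 10.02, and glucagon (GCG), a peptide of amacrine cells studied in eye growth, had 9.30 and 9.50, against 9.70 and 9.91. Neither reached 1.5-fold. EGR1, an immediate early gene, had 11.04 and 10.81, against 10.85 and 10.80. Over all 23 lists, 287 genes were measured, 0 passed with the control arrays alone, 25 reached an unadjusted p under 0.05 and 1.5-fold, and 19 of those 25 were among the 74 on Z. Besides 4 W-linked genes, the autosomal ones were SST1 and CALB1. The same limits were reached by 1.37% of all probe sets and 19.5% of Z-linked ones. Of Z-linked genes above an intensity of 16, at 1 probe set each, 38.1% reached them.

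Markers of oligodendrocytes, and part of those of pigment epithelium, were highest in control 4. The summed intensity of 12 markers of pigment epithelium and melanocytes was 1229 in control 2 and 2104 in control 4, against 1055 in control 1, 762 in control 3 and 776 to 1032 in lens-treated chicks. In control arrays most of this sum came from RPE65, and most of the oligodendrocyte sum below from MBP. The sums therefore do not show that the markers of a list moved together. RPE65, the visual cycle isomerase of the pigment epithelium, had 9.60 and 10.48, against 9.34 and 8.69 and 8.19 to 9.18 in lens-treated chicks, and RGR, an opsin-related protein of that epithelium, had 7.03 and 8.66, against 6.67 and 6.39. TYRP1, a melanin enzyme gene on Z, had 5.47 and 3.82, against 3.97 and 2.50. Of the 12 markers 10 were higher on average and 2 lower, the lowest by −0.34, with a median of 0.02 (log2). Among all probe sets below an intensity of 16, where part of the 12 lay, 79.5% were higher on average, against 47.0% above it. Of the 6 markers above an intensity of 16, 3 were higher in both arrays without W signal than in both control arrays with it. Of all probe sets above that intensity, 16.2% were. Of the 6 markers 3 were highest in control 4, while TYR, PMEL, BEST1 and LRAT lay near background in every array. The 6 oligodendrocyte markers summed to 4680 in control 2 and 8531 in control 4, against 6210 in control 1 and 3350 in control 3, with 4907 to 6165 in lens-treated chicks. All 6 were higher on average, with a median of 0.55, none passed, and all 5 above background were highest in control 4, as MBP with 12.03 and 12.90, against 12.47 and 11.48. Of the oligodendrocyte markers, 2 were higher in both arrays without W signal than in both control arrays with it. The part of these tissues in the autosomal differences was not tested.

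**Figure D5:**
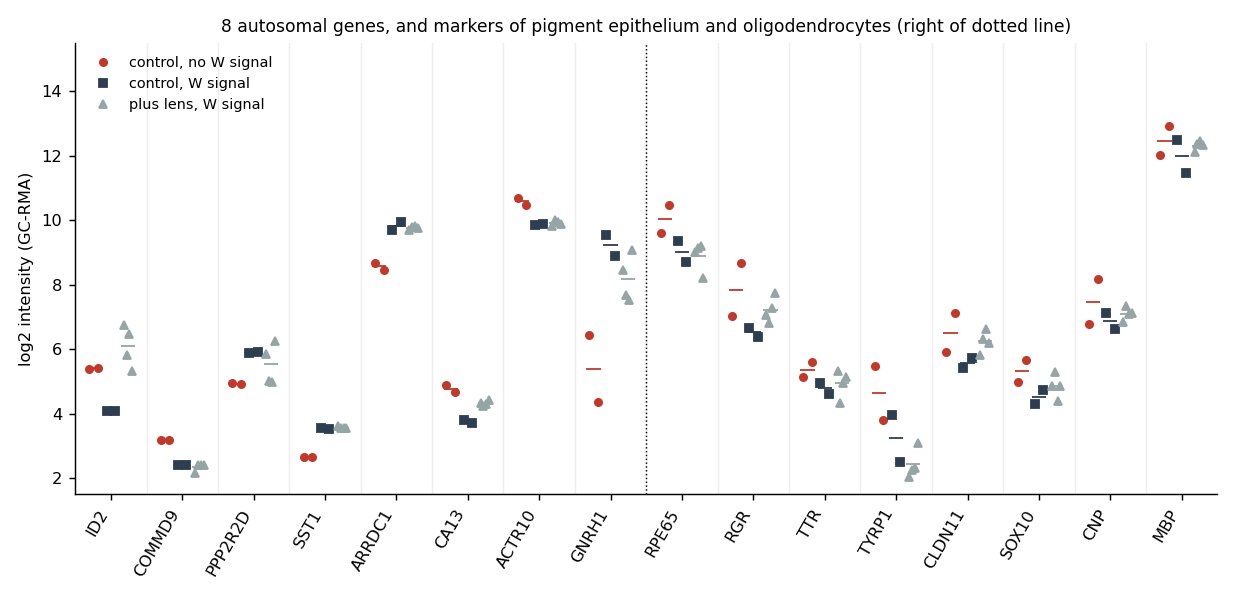
Log2 intensity (y axis) of 8 autosomal genes and, right of the dotted line, of markers of pigment epithelium (RPE65, RGR, TTR, TYRP1) and oligodendrocytes (CLDN11, SOX10, CNP, MBP). Circles are the 2 control arrays without W signal, squares the 2 control arrays with it, triangles the 4 arrays of lens-treated chicks, and lines their means; at SST1 and ARRDC1 the circles lie below all other symbols, and at ID2 3 of the 4 lens-treated chicks lie above the circles.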

How the data were processed

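Retinal RNA of 4 untreated and 4 lens-treated chicks was hybridized to Affymetrix GeneChip Chicken Genome arrays. The authors deposited intensities per probe set on a linear scale, made with GC-RMA, which subtracts background by probe GC content, brings arrays to a common distribution and combines the probes of each probe set. Scaling assumes that most mRNA does not differ, and few dim probe sets keep a difference. The deposited records of other values gave only fluidics station, module and scan order. Log2 intensities were used without further scaling. Leaving out 96 Affymetrix control probe sets of 38535 left 38439. A single symbol was given for 27168 probe sets, and 26853 were matched to RefSeq (GRCg7b) for current names and chromosomes. The number of arrays limits the precision.

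Control arrays without W signal minus control arrays with it were tested with limma 3.58.1 (lmFit, eBayes) in R 4.3.3, two-sided, with p-values adjusted by Benjamini-Hochberg over 38439 probe sets. A call needed an adjusted p under 0.06 and 1.5-fold, after the 6% false discovery rate and the fold limit of the methods. The pairs of arrays, the gene lists and the rules were chosen with earlier results of these data known. Named genes were the W-linked probe sets that differed by over 1 (log2), the 10 Z-linked and the 10 higher and 10 lower autosomal probe sets of smallest p with 1 symbol and 1.5-fold, the Z partners of measured W genes, and the 2 largest differences of a list; others were chosen after their values were seen. A gene of a list was represented by its brightest probe set in control arrays. Alternatives covered the arrays in the fit, moderation, weights, normalization, scaling, dim probe sets, probe sets per gene, call rules and each array left out. The limma fit was also run on simulated arrays, and the outcome is not given here.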

Additional observations from a re-analysis of the deposited data

Results flagged for a closer look

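Among named genes, the 4 arrays of a group were searched for a single array far from the other 3, by its gap to the nearest array as a share of the range of the group. Of 244 groups tested, 20 had such an array. A rate of about 1 in 20 groups by chance holds only where the 4 arrays of a group are alike. Control groups hold both pairs of arrays, and many genes were named because the pairs differed. That rate therefore does not apply to control groups, and the count of 20 cannot be set against it. Of the 20 groups, 15 were of lens-treated chicks, which entered no pair of arrays above.

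Among W-linked and Z-linked genes, lens-treated chicks had 1 low array at HNRNPKL (gap 0.879 of the range, 7.72 against 9.37 to 9.60), UBAP2L2 (0.860), CHD1 (0.886, 6.61 against 7.01 to 7.06) and ZNF608 (0.877), and 1 high array at LOC374195 (0.875). At autosomal genes named for their p, 1 lens-treated chick was apart at COMMD9 (0.958), SST1 (0.866), MTBP (0.897), EOGT (0.842) and VPS26B (0.837). At genes of the lists, it was apart at NMU (0.882, 6.38 against 3.91 to 4.20), CRYAB (0.896), PROX1 (0.841), FMOD (0.995) and PECAM1 (0.895).

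In the control group, which holds both pairs, 1 array was apart at THY1 (0.841, 9.05 against 9.61 to 9.72), FMOD (0.962), GUCA1A (0.918, 11.83 against 12.37 to 12.42), PECAM1 (0.837, 6.41 against 7.25 to 7.41) and COL1A2 (0.885).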

How the results depend on the processing

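With 2 arrays a side, the count of calls moved with most choices, though it was 3 or 4 with array weights, quantile normalization, autosomal centring and no minimum fold, while the Z-linked median above background stayed between 0.49 and 0.55. The 4 calls became 112 with all 8 arrays (71 Z-linked, 8 autosomal, 10 genes of the lists) and 15 (2 list genes) above a mean intensity of 16. They became 2 with a floor of 16 or 1 probe set per gene, 0 with trend and robust moderation, the methods' t-test, and each control array left out (0 to 0), 525 at an unadjusted p under 0.05 and 572 by lying outside the 6 arrays with W signal. Probe sets at an unadjusted p under 0.05 fell to 347 with a floor and 261 with 1 probe set per gene, and were 753 to 869 with an array left out. The autosomal ones (165) were 94 by the methods' t-test, 78 with a floor, 88 with 1 probe set per gene and 365 to 445 with an array left out. With an array left out, the lone array of its pair is assumed to vary like the other pair. The compared arrays share no replicate number. A fit of 8 arrays with the replicate number, equal to the module, as a replicate block gave 0 calls, 389 autosomal probe sets at an unadjusted p under 0.05, and medians over all probe sets of 0.18 (Z-linked) and 0.012 (autosomal). Those medians, 0.16 and 0.01 in the report, were 0.19 and 0.037 after autosomal centring, 0.52 and −0.019 above an intensity of 16, and 0 and 0 with a floor. The Z-linked one was 0.29 with 1 probe set per gene, and the autosomal one 0.00015 after quantile normalization. Above 16, centring gave 0.55 and 0.011. Leaving out an array gave Z-linked medians of 0.12 to 0.17 and autosomal ones of 0.0034 to 0.011 over all probe sets, and 0.49 to 0.52 and −0.030 to −0.0031 above 16. Signs turned at 9 list genes that had not passed. Leaving out an array gave log2 differences of −0.029 to 0.10 at ALAS1, −2.42 to 0.78 at CHAT, −0.059 to 0.97 at CRYAB, −0.020 to 0.62 at THY1, −0.57 to 0.47 at CD74, −0.041 to 0.55 at GUCA1A, −0.83 to 0.26 at CNGA1, −0.92 to 0.024 at PECAM1 and −0.025 to 0.35 at COL1A2. Under the replicate block THY1 had −0.13, GUCA1A −0.011 and PECAM1 0.076. The cause of these shifts was not tested. The number of chicks, 2 a side, and the share of dim probe sets limit what could be called.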
